A study of Mus musculus with 9 samples.

Results

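The 9 libraries described here were divided by how much skeletal muscle RNA they held. Muscle-containing libraries were chosen by their measured raw reads of Acta1 plus Ckm, at least 1000, which gave 4 of the 9: Sham 1, Injury 1, Injury 2 and Sacral NC 2. The other 5 libraries (Sham 2, Sham 3, Injury 3, Sacral NC 1 and Sacral NC 3) are called muscle-poor. Acta1 (chromosome 19, 51883715 to 51886742 as the tables give it) encodes the skeletal muscle actin of the thin filament. Ckm (chromosome 1, 79061456 to 79071720) encodes the muscle creatine kinase that regenerates ATP in the fibre.

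RNA was sequenced in bulk from the penile tissue of rats, in 3 surgery groups of 3 libraries each. Sham rats had the operation with the major pelvic ganglia left uninjured. These ganglia lie on either side of the pelvis and supply the penis with autonomic nerves. In Injury rats both ganglia were clamped, a model of neurogenic erectile dysfunction. Sacral NC rats had the same clamping and then a transplant of sacral neural crest cells, which the series title describes as made from hPSC, human pluripotent stem cells. In every group tissue was taken 4 weeks later. Strain, age and sex are not stated in the labels. They also do not say whether each library came from 1 animal, so p-values measure only the spread between these libraries. The muscle split crosses the surgery groups, with 1 muscle-containing library of 3 in Sham, 2 of 3 in Injury and 1 of 3 in Sacral NC.

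The erectile bodies of the penis are built of smooth muscle, endothelium and connective tissue, wrapped in a fibrous sheath. Striated muscle is a separate tissue: the ischiocavernosus and bulbospongiosus muscles enclose the roots of the erectile bodies, and a sample may or may not include them. The labels do not state where each sample was cut, and the part of dissection in the differences was not tested. Striated fibres contract through sarcomeres, in which myosin thick filaments pull on actin thin filaments when the calcium channel Ryr1 of the sarcoplasmic reticulum opens and troponin binds the calcium. Smooth muscle uses another myosin, Myh11, and other actins, Acta2 and Actg2, and is switched on by myosin light chain kinase.

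Total counts ran from 15442190 to 18283418 per library, so depth differed little between the classes. Levels are given as scaled CPM, reads of a gene relative to all reads of the library after TMM scaling for composition, and differences as log2 of muscle-containing over muscle-poor libraries within surgery group. The first principal component of log2 CPM carried 48.4% of the variance. Acta1, Ckm and other skeletal muscle genes were among the genes used, so positions on it are not independent of the rule. All 4 muscle-containing libraries lay on its negative side, from -81.1 (Injury 2) to -23.7 (Sacral NC 2), 4 muscle-poor libraries lay between 36.2 and 59.9, and the muscle-poor library Injury 3 lay at -7.36. The smooth muscle myosin Myh11 had at least 7426 reads in each of the 9 libraries.

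The reads that set the classes spanned more than 3 orders of magnitude. Acta1 had 34120 reads in Sham 1 against 72 and 67 in Sham 2 and Sham 3. Acta1 reached 8044 and 124332 reads in Injury 1 and Injury 2 against 210 in Injury 3, and 6961 in Sacral NC 2 against 44 and 53 in Sacral NC 1 and Sacral NC 3. Ckm had 15906 reads in Sham 1, 2731 and 37369 in Injury 1 and Injury 2, 4259 in Sacral NC 2, and 32 to 158 in the muscle-poor libraries. Both genes together took 0.953% of all counts in Injury 2 (95% exact binomial interval 0.949% to 0.958%), 0.291% in Sham 1, 0.0727% in Sacral NC 2 and 0.0677% in Injury 1. Intervals on shares cover counting error only. The library just inside the threshold was Injury 1 with 10775 reads of both genes, and the one just outside was Injury 3 with 368. No library lay near 1000 reads, and Injury 3 held more of these reads than the other 4 muscle-poor libraries, which held 76 to 148.

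**Figure D1:**
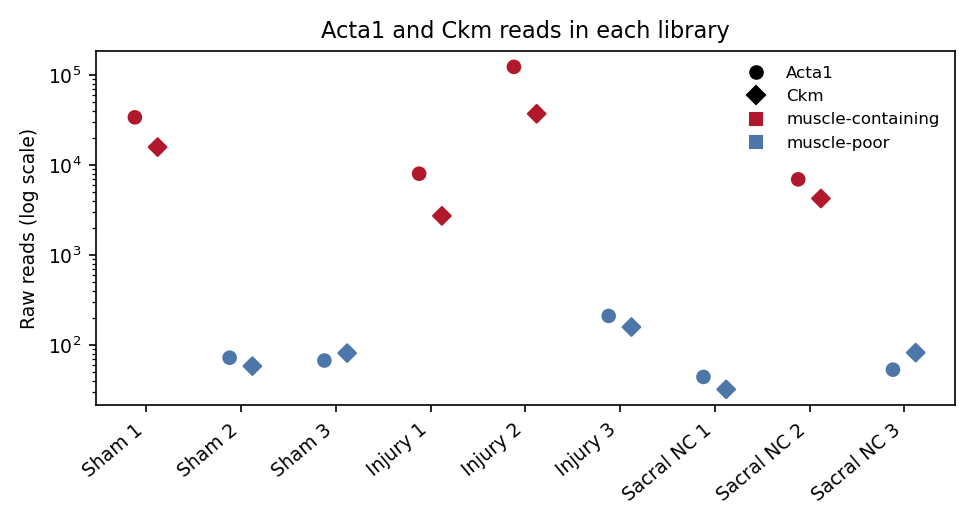
Raw reads of Acta1 (circles) and Ckm (diamonds) in each of the 9 libraries on a log scale, red for muscle-containing and blue for muscle-poor libraries. The 4 red libraries hold 2731 reads or more of either gene and the 5 blue ones 210 or fewer.

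Genes of the striated sarcomere and its calcium and energy systems were high in the same 4 libraries. These genes depend on the same fibres as the reads that set the classes, so their values are a description without a test. Of 116 genes in 7 skeletal muscle lists, 111 were in the tables and 106 passed the filter on low counts. In 94 of the 106, the muscle-containing libraries lay above the muscle-poor ones within each surgery group, where 6.2% of all 15826 genes tested did so. The summed level of the lists was 14129.6 scaled CPM in Sham 1, 4365 and 49964 in Injury 1 and Injury 2, 4233 in Sacral NC 2, and 544 to 829 in the muscle-poor libraries. Injury 2 held more of this RNA than the other 3 muscle-containing libraries together.

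In the thick filament, the fast myosin heavy chain Myh4 had 40064 reads in Sham 1, 5321 and 91573 in Injury 1 and Injury 2 and 6791 in Sacral NC 2. It had 3, 0, 3, 18 and 1 reads in Sham 2, Sham 3, Injury 3, Sacral NC 1 and Sacral NC 3. Titin (Ttn), the giant spring of the sarcomere, had 10868, 2425, 28483 and 2191 reads in the 4 muscle-containing libraries in the same order, against 2 to 12 in the others. The calcium pump Atp2a1 of the sarcoplasmic reticulum had 22820, 3184, 50290 and 4221 reads, against 11 to 23. These genes were close to absent outside the 4 libraries. The calcium buffer Pvalb of fast fibres had 3880, 949, 20704 and 1354 reads, against 3 to 10.

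Transcripts of muscle-specific regulators followed the same split. Myf6, a myogenic transcription factor kept on in mature fibres, had 355, 85, 567 and 61 reads in Sham 1, Injury 1, Injury 2 and Sacral NC 2 and 0 in each muscle-poor library. Myod1, the factor that commits cells to the myogenic lineage, had 39, 27, 145 and 14 reads and also 0 in each muscle-poor library. Pax7, which marks the satellite cells that renew fibres, had 3, 2 and 18 reads in Sham 1, Injury 1 and Injury 2 and 0 in the other 6 libraries, too few to compare. Mstn, the secreted brake on muscle growth, was the less exclusive member with 4 to 17 reads in the muscle-poor libraries and 38 to 239 in the others.

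Skeletal muscle genes did not keep the same proportions in the 4 libraries. Reads were set against 1000 reads of Acta1 plus Ckm, the same reads that set the classes, so the values are proportions to those genes. Acta1 itself made up 620.4 to 769 of each 1000 and Ckm 231 to 379.6. On this scale Myom2, the M-band protein that links thick filaments, stood at 30.7 in Sham 1, 36.5 and 33.4 in Injury 1 and Injury 2 and 30.9 in Sacral NC 2. Ttn stood at 217, 225, 176 and 195. The fast troponin I gene Tnni2 stood at 75.9, 92.5, 84.8 and 97.1. These were among the genes with the steadiest proportion, with a highest-to-lowest ratio of 1.19 for Myom2, 1.20 for the voltage sensor Cacna1s and 1.28 for Ttn and Tnni2, picked for that after the values were seen. Other genes of fast fibres varied more, with a ratio of 1.62 for Myh4, 1.65 for Pvalb, 1.72 for the fast troponin T gene Tnnt3, 1.78 for the myosin-binding protein Mybpc2, 2.18 for the fast alpha-actinin Actn3 and 2.53 for the fast troponin C gene Tnnc2.

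Injury 1 differed from the other 3 in the proportions of many skeletal genes. Of 28 skeletal genes with at most 5 reads in each muscle-poor library and at least 100 reads in all (a filter chosen after the values were seen), 21 were highest in Injury 1 per 1000 Acta1 plus Ckm reads, 3 in Sham 1, 2 in Injury 2 and 2 in Sacral NC 2. In 8 of the 28, Injury 1 was at least 2 times the next library. The filter left out several abundant genes of fast fibres, some of them lowest in Injury 1. Myh4 stood at 494 per 1000 in Injury 1 (566 to 801 in the others) and Atp2a1 at 295 (311 to 456). Actn3 stood at 77.8 (110 to 170) and Mybpc2 at 49.8 (73.3 to 88.6). Pvalb, Tnnt3 and Tnnc2, also left out, were not lowest in Injury 1. Chrna1, the alpha subunit of the acetylcholine receptor at the neuromuscular junction, stood at 7.15 per 1000 in Injury 1 and at 0.560, 0.439 and 0.446 in Sham 1, Injury 2 and Sacral NC 2. These come from 77, 28, 71 and 5 raw reads. Myog, the factor that drives terminal differentiation of myoblasts, stood at 4.55 in Injury 1 and 0.540, 1.09 and 0.980 in the others in the same order.

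Among the 8 were genes of the contractile filaments and the calcium pump. Actc1, the cardiac actin that fetal skeletal muscle also uses, stood at 39.4 per 1000 in Injury 1 and at 5.20, 9.99 and 12.7 in Sham 1, Injury 2 and Sacral NC 2. Myl3, the light chain of slow and ventricular myosin, stood at 41.4 against 6.24, 4.66 and 8.82. Sln, the small protein that slows the calcium pump, stood at 21.4 against 6.76, 4.65 and 6.95. Injury 1 stood at 3.09, 4.69 and 3.08 times the next library for these genes. Csrp3, a Z-disc protein of slow and cardiac muscle, varied most, with a highest-to-lowest ratio of 101 on this scale, and had 97 raw reads in Injury 1, 905 in Injury 2, 55 in Sham 1 and 1 in Sacral NC 2.

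Myosin heavy chain reads were also distributed differently in Injury 1. Over 5 heavy chain genes in the tables (Myh2, Myh3, Myh4, Myh7 and Myh8), the fast chain Myh4 took 94.8% of the reads in Sham 1, 96.7% in Injury 2 and 96.0% in Sacral NC 2, but 65.9% in Injury 1 (exact binomial interval 64.9% to 66.9%). The perinatal chain Myh8 took 24.9% in Injury 1 (24.0% to 25.9%) and 3.19%, 2.29% and 3.42% in Sham 1, Injury 2 and Sacral NC 2. Myh2, the chain of oxidative fast fibres, took 8.10% in Injury 1, 1.63% in Sham 1, 0.406% in Injury 2 and 0.424% in Sacral NC 2. The embryonic chain Myh3 took 0.966% in Injury 1 (0.764% to 1.20%) and 0.638% in Injury 2 (0.588% to 0.690%), with 0.199% in Sham 1 and 0.0566% in Sacral NC 2. The slow chain Myh7 was highest in Sham 1, at 0.163% (0.127% to 0.207%) against 0.0867% in Injury 1 (0.0349% to 0.179%), and had no more than 69 reads in any library. The shares that were highest in Injury 1 were thus those of Myh8, Myh2 and Myh3 and not that of the slow chain Myh7. This holds for the heavy chains only, since the slow light chain Myl3 was highest in Injury 1 per 1000 Acta1 plus Ckm reads. Myh2, Myh3, Myh4 and Myh8 lie side by side on chromosome 10 and are similar in sequence, and the labels do not state how reads fitting more than 1 of them were counted. Myh1, also listed for the thick filament, was not found under that symbol. The shares are therefore of these 5 genes only, and how reads of Myh1 were counted is not known.

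**Figure D2:**
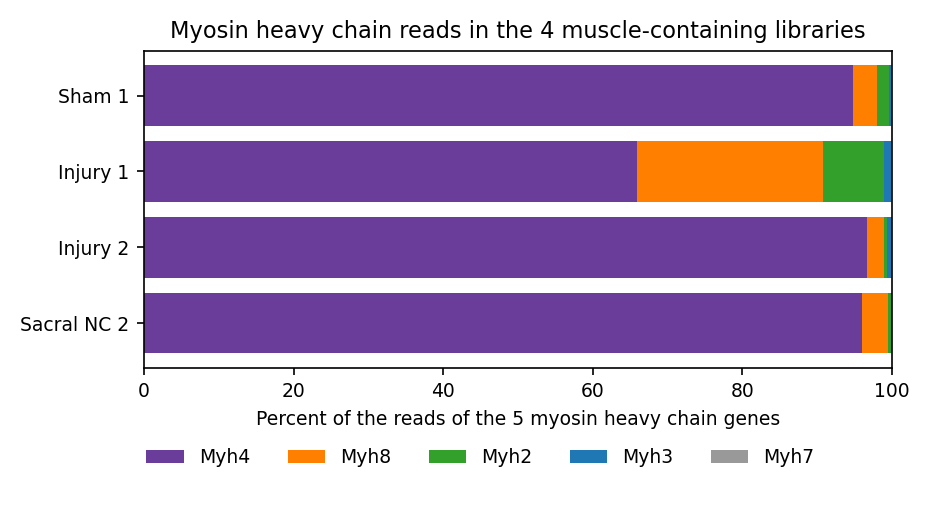
Percent of the reads of 5 myosin heavy chain genes that each gene took, for the 4 muscle-containing libraries. Myh4 fills 94.8% to 96.7% of the bar in 3 libraries and 65.9% in Injury 1, where Myh8 fills 24.9%.

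The ratio of fast to slow troponin I reads was lowest in Injury 1 among the 4 libraries. Tnni2 (fast) had 52.0 reads per read of Tnni1 (slow) in Sham 1, 10.8 and 85.7 in Injury 1 and Injury 2 and 136 in Sacral NC 2, the last from only 8 reads of Tnni1. In the muscle-poor libraries the ratio lay between 0.576 and 2.80. The ratio for troponin T (Tnnt3 over Tnnt1) was 36.3 in Injury 1, also the lowest of the 4, and 15.55 to 141.6 in muscle-poor libraries. For troponin C (Tnnc2 over Tnnc1) it was 62.1 in Injury 1, again the lowest of the 4, and 18.2 to 104.5 in muscle-poor libraries. Across surgery groups both of these ratios overlapped between the classes, with few reads of the slow genes in muscle-poor libraries. Injury 2, the other muscle-containing library with clamped ganglia and no transplant, shared only part of the pattern of Injury 1. Its Myh8 and Myh2 shares were the lowest of the 4 libraries, and none of its troponin ratios was the lowest. Its Myh3 share, 0.638%, lay above those of Sham 1 (0.199%) and Sacral NC 2 (0.0566%), as that of Injury 1 did. Csrp3 per 1000 Acta1 plus Ckm reads was likewise higher in Injury 1 and Injury 2 than in Sham 1 and Sacral NC 2. The pattern as a whole was that of 1 library and has no replicate.

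Across all genes, 64 of 15826 differed between the classes at a Benjamini-Hochberg adjusted p under 0.05 in edgeR's quasi-likelihood test (0.404% of genes tested), 61 of them higher (0.385%) and 3 lower (0.019%) in muscle-containing libraries. Of the 64, 36 were members of the skeletal muscle lists by symbol, from which nothing is read, and 28 were not. Leaving out any of 7 of the 9 libraries left 1 to 5 genes called, all of them skeletal muscle genes, while leaving out Injury 1 or Injury 2 gave 202 and 184. All 64 kept their direction in each of these 9 fits, and 64 were also called by DESeq2, which called 568.

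Most of the largest differences outside the lists were in other genes that striated muscle is known to use. Hjv (hemojuvelin, an iron regulator made in liver and skeletal muscle) had 1048, 174, 2312 and 297 reads in Sham 1, Injury 1, Injury 2 and Sacral NC 2 and 0 to 3 in the muscle-poor libraries. Myl11, the fast regulatory light chain, stood at 436, 192, 3224 and 183 scaled CPM in the same 4 libraries against 3.19 to 3.79 in the others. The thick filament list holds Myl11 under another symbol, Mylpf, so it was counted outside the lists by symbol only. Eef1a2, the elongation factor form of muscle and neurons, stood at 72.4, 21.0, 290.2 and 15.7 against 0.250 to 0.797. These genes tracked the reads that set the classes. Sypl2, Ky, Unc45b, Smtnl1, Styxl2, Rpl3l, Mlf1 and Mypn, also among the 12 largest, had the same arrangement, with muscle-containing libraries above muscle-poor ones within each surgery group. Because they too are expressed in striated fibres, their calls are not independent of the rule.

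Desmin and beta-tropomyosin, shared by striated and smooth muscle, were higher in the muscle-containing libraries. Des (chromosome 9, 76850982 to 76858699), the intermediate filament of all muscle types, stood at 599 scaled CPM in Sham 1 against 166 and 134 in Sham 2 and Sham 3. It stood at 451 and 756 in Injury 1 and Injury 2 against 215 in Injury 3, and at 899.7 in Sacral NC 2 against 116 and 187 in Sacral NC 1 and Sacral NC 3. The groups did not overlap, and the library with the highest Des was Sacral NC 2, which had the least Acta1 of the 4. The log2 difference was 2.02 ± 0.25 (SE, 4 against 5 libraries; edgeR adjusted p = 0.0415). Tpm2, which lies along the thin filament in both muscle types, differed by 1.71 ± 0.24 (edgeR adjusted p = 0.0415). Both calls were lost on leaving out any library other than Injury 1 or Injury 2. Striated fibres make both transcripts, so these calls are not independent of the rule that set the classes.

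Genes of smooth muscle as a whole were higher in the muscle-containing libraries. All 24 members of the smooth muscle list had a positive difference, with a median log2 difference of 1.05 against -0.02 over all genes tested. Des and Tpm2 passed the adjusted threshold, all 24 had an unadjusted p under 0.05 (5.58% of all genes did in this direction), and DESeq2 called 17 of 24 higher, where it called 2.22% of all genes higher. In bulk tissue, fewer cells of a type and less RNA per cell cannot be told apart. The level of the list, summed over its genes, was 16172 scaled CPM in Sham 1 against 7601 and 7255 in Sham 2 and Sham 3, 14116 and 15307 in Injury 1 and Injury 2 against 10956 in Injury 3, and 19006.5 in Sacral NC 2 against 4674 and 6736 in Sacral NC 1 and Sacral NC 3. The amount of smooth muscle RNA did not follow the amount of skeletal muscle RNA among the 4 libraries: Sacral NC 2 had the highest smooth and the lowest skeletal level.

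**Figure D3:**
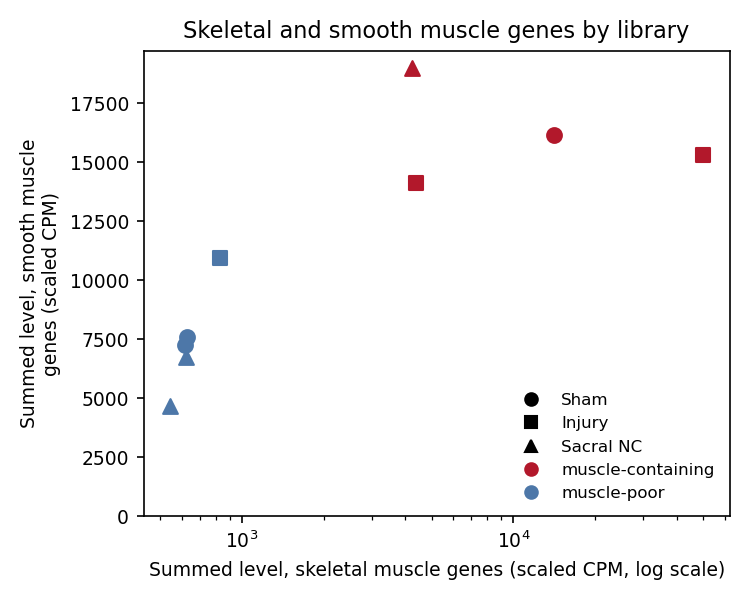
Summed level of the skeletal muscle genes (scaled CPM, log scale) against that of 24 smooth muscle genes (scaled CPM) for each library, with symbols for surgery group and red for muscle-containing libraries. The 4 red libraries lie at 14116 to 19006.5 on the smooth muscle axis and the 5 blue ones at 4674 to 10956.

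Some members of that list are made by striated fibres too, so the list was also read without 10 such genes (chosen after the values were seen). The remaining 14, among them Acta2, Actg2, Cnn1, Myh11, Mylk, Myocd and Tagln, all had a positive difference with a median of 1.04. In edgeR 0 passed the adjusted threshold, although all 14 were higher at an unadjusted p under 0.05 (5.58% of all genes). Their summed level was 2.16 times higher in the muscle-containing library of Sham and 3.61 times in that of Sacral NC, but 1.13 times within Injury, where Injury 2 (6928 scaled CPM) lay just below the muscle-poor Injury 3 (7069) and Injury 1 (9078) above it. So this summed level separated the classes in Sham and Sacral NC and overlapped in Injury. Taken singly, 7 of the 14 genes, Actg2 among them, were higher without overlap within all 3 groups (6.2% of all genes).

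Actg2, the enteric smooth muscle actin, stood at 581 scaled CPM in Sham 1 against 243 and 221, at 588 and 543 in Injury 1 and Injury 2 against 401, and at 757 in Sacral NC 2 against 71.6 and 179.6 in the remaining libraries of each group. It was higher in the muscle-containing libraries of all 3 groups, with a log2 difference of 1.48 ± 0.39 (edgeR adjusted p = 0.205; 0.91 without Sacral NC 2). Myh11 stood at 2253 in Sham 1 against 999 and 957, at 1922 and 1347 in Injury 1 and Injury 2 against 1682, and at 2616 in Sacral NC 2 against 446 and 865. Its classes overlapped in Injury, and its difference of 1.05 ± 0.36 did not pass (edgeR adjusted p = 0.303). It was 0.58 without Sacral NC 2 and 1.62 without Injury 3. Pcp4, a small calmodulin-binding protein, had the highest difference in the list at 2.45 ± 0.46 (edgeR adjusted p = 0.0768; DESeq2 adjusted p = 1.56e-06).

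**Figure D4:**
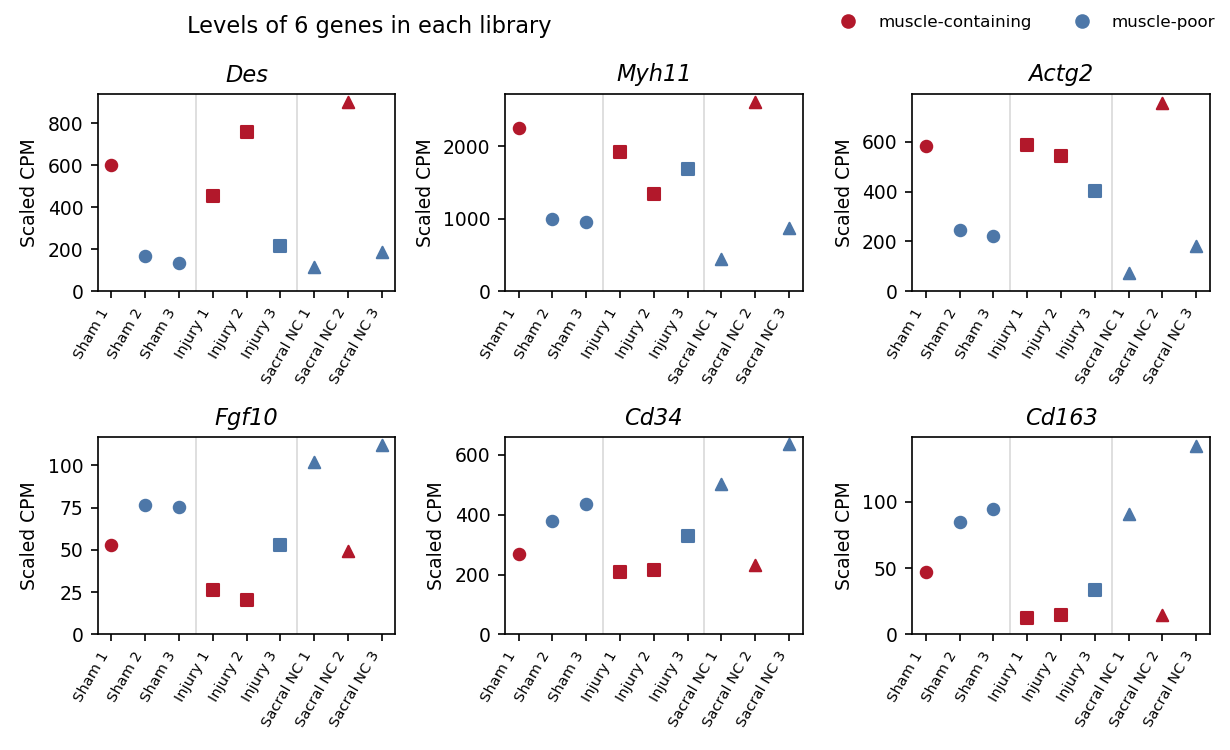
Scaled CPM of 6 genes in each library, red for muscle-containing and blue for muscle-poor, with lines between the surgery groups. Des and Actg2 are higher, and Fgf10, Cd34 and Cd163 lower, in the red libraries of each group, while the Myh11 values of Injury overlap.

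Signalling genes of smooth muscle relaxation differed in both directions, with a median log2 difference of 0.13 (-0.04 without Sacral NC 2). Single genes ran from -1.61 to 1.10, the highest being Irag1. Of 17 genes of nitric oxide and cyclic GMP signalling, the pathway that relaxes erectile smooth muscle, 10 had a positive difference and 0 passed in edgeR, with 4 higher and 3 lower at an unadjusted p under 0.05 (5.58% and 6.66% of all genes). DESeq2 called 3 of them higher (2.22% of all genes): Irag1, a target of the cyclic GMP kinase, Pde2a, a cyclic nucleotide phosphodiesterase, and Pde5a, the phosphodiesterase that sildenafil inhibits. Pde5a stood at 39.7 scaled CPM in Sham 1 against 19.2 in both Sham 2 and Sham 3, at 39.0 and 28.8 in Injury 1 and Injury 2 against 32.0 in Injury 3, and at 54.1 in Sacral NC 2 against 14.7 and 20.1. As with Myh11, the classes overlapped in Injury (log2 difference 0.92 ± 0.26, edgeR adjusted p = 0.232), and without Sacral NC 2 the difference was 0.57.

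Among metabolic genes, the insulin-responsive glucose transporter Slc2a4, used by muscle and fat, came nearest to the threshold. It stood at 87.7 scaled CPM in Sham 1 against 35.0 and 28.6, at 62.5 and 80.7 in Injury 1 and Injury 2 against 44.3, and at 99.0 in Sacral NC 2 against 24.4 and 34.2. The log2 difference was 1.30 ± 0.20 (edgeR adjusted p = 0.052; DESeq2 adjusted p = 2.16e-06). Of 39 nuclear genes of oxidative phosphorylation tested, 38 had a positive difference with a median of 0.18. Of 13 mitochondrial ones all 13 did, with a median of 0.22. In edgeR 0 of either list passed, and 2 of each were higher at an unadjusted p under 0.05 (5.58% of all genes). Without overlap within all 3 groups, 15 of the 39 and 8 of the 13 were higher (6.2% of all genes). DESeq2 called 0 of the nuclear genes and 1 of the mitochondrial ones higher (2.22% of all genes). Of 13 general glycolysis genes 11 had a positive difference, with a median of 0.12. Glycolysis genes summed to 3849 scaled CPM in Injury 2 and 1583 to 2122 in the other 8 libraries. Without Injury 2 the median was 0.06 for glycolysis and 0.10 for the nuclear oxidative phosphorylation genes, and without Injury 3 the latter was 0.08.

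Other called genes outside the lists had smaller differences. Dmd, which encodes dystrophin, is made by both muscle types and differed by 0.67 ± 0.09 on the log2 scale (edgeR adjusted p = 0.0415). Mustn1, a small nuclear protein of the musculoskeletal system, stood at 149, 153, 179 and 226 scaled CPM in Sham 1, Injury 1, Injury 2 and Sacral NC 2 against 76.2 to 108 in the muscle-poor libraries, a log2 difference of 1.00 ± 0.14 (edgeR adjusted p = 0.0415). Rbm24, a splicing regulator of striated muscle, differed by 1.63 ± 0.22 (edgeR adjusted p = 0.0415). The calls of Dmd, Mustn1 and Rbm24, genes of muscle or the musculoskeletal system, are not independent of the rule either. Lamp5, a membrane protein known from neurons and dendritic cells, stood at 15.5 in Sham 1 and 25.4 in Sacral NC 2 but at 4.57 and 4.09 in Injury 1 and Injury 2, against 2.02 to 4.58 in the muscle-poor libraries. Its classes separated within each surgery group but not across them (2.03 ± 0.29, edgeR adjusted p = 0.0415). Wnk2, a kinase, Adam11, a membrane protein without protease activity, Ngb, the globin of neurons, and A4galt, a glycolipid synthase, were called higher with 0.125 to 11.8 scaled CPM over all 9 libraries.

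The 3 genes called lower in muscle-containing libraries were Fgf10, Cadps2 and Adamtsl5. Fgf10 (chromosome 2, 50800992 to 50876866), a growth factor that mesenchyme sends to epithelium, stood at 52.9 scaled CPM in Sham 1 against 76.4 and 75.6 in Sham 2 and Sham 3. It stood at 26.4 and 20.5 in Injury 1 and Injury 2 against 52.8 in Injury 3, and at 49.5 in Sacral NC 2 against 102 and 112 in Sacral NC 1 and Sacral NC 3. Each muscle-containing library lay below the others of its group, and the log2 difference was -0.93 ± 0.14 (edgeR adjusted p = 0.0415). Cadps2, a priming factor of dense-core vesicles, differed by -0.75 ± 0.11, and Adamtsl5, a secreted protein of the fibrillin matrix, by -0.58 ± 0.09 (edgeR adjusted p = 0.0415 for each). All 3 calls were kept without Injury 1 and without Injury 2 and lost without any of the other 7 libraries. Manba, a lysosomal mannosidase (-0.63 ± 0.11, edgeR adjusted p = 0.0555), and Xpnpep2, a membrane aminopeptidase (-1.39 ± 0.24, edgeR adjusted p = 0.0584), came next without passing.

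Fibroblast genes were lower in the muscle-containing libraries in most cases, none past the edgeR threshold. Of 15 tested, 12 had a negative difference, with a median of -0.52 (-0.27 without Sacral NC 2). In edgeR 0 passed and 8 were lower at an unadjusted p under 0.05 (6.66% of all genes were), and DESeq2 called 5 lower (1.04% of all genes): Cd34, Clec3b, Dcn, Pdgfra and Pi16. Cd34, a surface sialomucin of stromal and vascular progenitors, stood at 270.0 scaled CPM in Sham 1 against 378 and 436, at 207 and 216 in Injury 1 and Injury 2 against 329, and at 233 in Sacral NC 2 against 502 and 637. It was lower in the muscle-containing libraries of all 3 groups (log2 difference -0.83 ± 0.16, edgeR adjusted p = 0.0765). Pi16, which marks adventitial fibroblasts, stood at 159 in Sham 1 against 369 and 385, at 76.0 and 131 in Injury 1 and Injury 2 against 139, and at 79.6 in Sacral NC 2 against 801 and 655 (-1.55 ± 0.50, edgeR adjusted p = 0.277; -0.84 without Sacral NC 2).

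Macrophage genes were lower too, and unevenly between groups. All 16 genes of the myeloid list had a negative difference with a median of -1.06. In edgeR 0 passed and 11 were lower at an unadjusted p under 0.05 (6.66% of all genes), and in 12 the muscle-containing libraries lay below the others within each surgery group, where 8.73% of all genes did so. DESeq2 called 6 of the 16 lower (1.04% of all genes): Aif1, C1qa, C1qb, C1qc, Cd163 and Mrc1. Cd163, the haemoglobin scavenger receptor of resident macrophages, stood at 47.3 scaled CPM in Sham 1 against 84.8 and 94.5, at 12.3 and 14.6 in Injury 1 and Injury 2 against 33.3, and at 14.8 in Sacral NC 2 against 91.2 and 142 (-1.64 ± 0.37, edgeR adjusted p = 0.134). The summed list of the muscle-containing libraries was 0.699 of that of the others in Sham, 0.766 in Injury and 0.185 in Sacral NC. Without Sacral NC 2 the median difference was -0.51, and without Sacral NC 3 it was -0.81.

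Lymphatic vessel genes showed the same sign. All 7 had a negative difference with a median of -0.63, 0 passed in edgeR, 4 were lower at an unadjusted p under 0.05 (6.66% of all genes), and DESeq2 called 1 lower (1.04% of all genes): Lyve1, the hyaluronan receptor of lymphatic endothelium, which resident macrophages also make. Without Sacral NC 2 the median was -0.32. Genes of blood vessel endothelium did not share it: of 21 genes 10 had a positive and 11 a negative difference, with a median of -0.06 (0.07 without Sacral NC 2), 1 higher at an unadjusted p under 0.05 (5.58% of all genes) and 0 passing in edgeR. That one was Egfl7, a secreted endothelial protein (0.36 ± 0.07, edgeR adjusted p = 0.0883), the 1 of 21 that DESeq2 called higher (2.22% of all genes). The 29 ribosomal protein genes tested all had a negative difference, with a median of -0.24 (-0.05 without Sacral NC 2 and -0.39 without Injury 3) and 0 at an unadjusted p under 0.05 in edgeR or called by DESeq2.

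**Figure D5:**
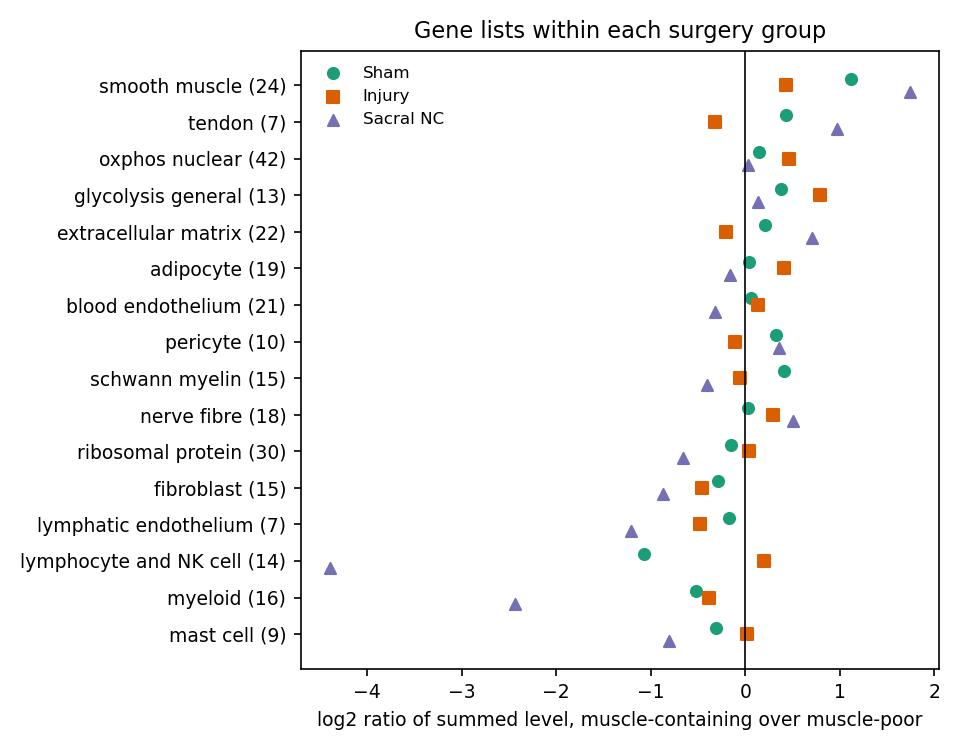
Log2 ratio of the summed level (scaled CPM) of 16 gene lists, muscle-containing over muscle-poor libraries, within each surgery group, with the number of genes in the tables in brackets. The smooth muscle list lies to the right of 0 and the fibroblast, lymphatic and myeloid lists to the left in all 3 groups, while tendon, matrix and Schwann cell lists change side.

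Connective tissue of tendon type was mixed. Of 7 tendon genes tested, 6 had a positive difference, with a median of 0.56 (0.15 without Sacral NC 2 and 1.00 without Injury 3). In edgeR 0 passed and 2 were higher at an unadjusted p under 0.05 (5.58% of all genes). DESeq2 called 1 of the 7 higher (2.22% of all genes), Scx. Scx, the transcription factor of tendon cells, stood at 21.1 scaled CPM in Sham 1 against 4.25 and 7.70, at 26.6 and 35.8 in Injury 1 and Injury 2 against 25.9, and at 24.0 in Sacral NC 2 against 4.75 and 5.37 (1.41 ± 0.35, edgeR adjusted p = 0.172). The level was therefore high in all 3 Injury libraries and, outside Injury, in the muscle-containing ones. Tnmd, the tendon membrane protein, was at 502 and 548 in Injury 1 and Injury 2 and 623 in Injury 3, against 44.5 to 209 in the 6 Sham and Sacral NC libraries (0.63 ± 0.33, edgeR adjusted p = 0.499; 1.10 without Injury 3, 0.40 without Sacral NC 1 and 0.13 without Sacral NC 2). Genes of extracellular matrix summed to 188737 to 247550 scaled CPM in the 3 Injury libraries and 27746 to 61282 in the other 6, so on matrix genes Injury 3 sat with its surgery group and not with the muscle-poor class.

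Genes that carry positional identity along the body and limb axes differed little in the median. Of 23 tested, 16 had a positive difference with a median of 0.19 (0.04 without Sacral NC 2), 0 passed in edgeR with 3 higher at an unadjusted p under 0.05 (5.58% of all genes), and DESeq2 called 2 higher (2.22% of all genes), Six2 and Tbx18, both mesenchymal transcription factors. Six2 stood at 14.3 scaled CPM in Sham 1 against 8.23 and 9.74, at 22.6 and 26.6 in Injury 1 and Injury 2 against 17.4, and at 13.9 in Sacral NC 2 against 11.7 and 9.68 (0.52 ± 0.12, edgeR adjusted p = 0.140). Each muscle-containing library lay above the others of its group. Tbx18 had the same arrangement and a larger difference (1.07 ± 0.26, edgeR adjusted p = 0.160).

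Whether the muscle split differed between the surgery groups was tested as an interaction. In edgeR 0 of 16306 genes passed and 996 had an unadjusted p under 0.05, with 3 residual degrees of freedom. DESeq2 called 79 of 21124 (0.374%). The fit has 1 library in 3 of its 6 combinations of group and class.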

How the data were processed

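The deposited tables, 1 for each pair of surgery groups, hold raw read counts per gene and library, per the file headers, with means of those counts. The authors' own log2 fold changes, test scores and p-values stand beside them, per the file headers, and were not used. Counts of a library in 2 tables were compared, 0 of 190116 values differed, and the 3 tables were joined into 9 columns. Mouse is the labelled organism, and GRCm38.p6 and the aligner HISAT2 2.0.5 are in the submitters' processing notes. The titles name rats and all 21124 identifiers are rat Ensembl identifiers, so the tables were read as rat. No label states the rat build, the counting tool or its strand setting. Overlapping and near-identical genes therefore have uncertain counts. The labels also give a cell line as source and pluripotent stem cells as cell type beside penile tissue.

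The test was run in edgeR 4.0.16 under R 4.3.3 (quasi-likelihood F-test, robust, TMM, filterByExpr), with surgery group and library class as terms over all 9 libraries and 5 residual degrees of freedom. A call is a Benjamini-Hochberg adjusted p under 0.05 over 15826 genes. The script was tested on simulated data. The standard error comes from the F statistic. DESeq2 1.42.0, other scalings and filters, a replicate block, a continuous covariate and leaving out each library were alternatives. The libraries, the 39 gene lists (34 of their symbols are not analysed here) and the naming rules were chosen with earlier results of these data known. Genes outside the skeletal lists were named by largest difference among called protein-coding genes (12 a side, filled to 5 by smallest p, at least 50 scaled counts in the higher class), and list members by smallest p (up to 4) or as the text says. The members that DESeq2 called, Mstn, Pvalb, Tnnt3, Mybpc2, Actn3, Tnnc2, Csrp3, Cacna1s, Myom2, Sln, Chrna1, Myog, Tnni1 and Tnmd, and the called genes beyond the 12, were named after their values were seen. Depth of 15442190 to 18283418 counts per library leaves counting error large for genes of few reads.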

Additional observations from a re-analysis of the deposited data

Results flagged for a closer look

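In 80 sets of libraries (39 list sums and the Acta1 plus Ckm share in each class, on a log2 scale), the gap of the highest or lowest library to its neighbour was compared with the whole range, and 5 sets passed the critical value, where chance gives about 1 in 20. In the 4 muscle-containing libraries, Sham 1 stood highest for lymphocyte genes (gap over range 0.838), neutrophil genes (0.862, with 38.8 scaled CPM against at most 5.00) and erythrocyte genes (0.883, with 78.4 against 20.7 to 24.2). In the 5 muscle-poor libraries, Injury 3 stood highest for extracellular matrix genes (0.755) and lowest for mast cell genes (0.716). These sets mix surgery groups, and each flagged library was the only one of its surgery group in its class. Within Sham, erythrocyte genes stood at 110 and 119 in Sham 2 and Sham 3, above Sham 1. Lymphocyte genes stood at 5.24 in Sham 1 against 12.5 and 9.40, and neutrophil genes at 15.5 and 32.4 in Sham 2 and Sham 3. Mast cell genes stood at 49.5 in Injury 3 against 49.9 and 50.4 in Injury 1 and Injury 2.

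For 13 lists, the muscle-containing libraries lay on opposite sides of the muscle-poor ones in different surgery groups, and these differences were not tested. Tendon genes had log2 ratios of 0.43 in Sham, -0.32 in Injury and 0.97 in Sacral NC. Cartilage and bone genes had 0.85, -0.25 and 1.43 in the same order. Matrix genes had 0.20, -0.21 and 0.70, and pericyte genes 0.33, -0.11 and 0.36. Those 4 lists were lower in the muscle-containing libraries of Injury and higher in those of Sham and Sacral NC.

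Stratified epithelium genes had -1.07 in Sham and 0.40 in Injury, and simple epithelium and urothelium genes -0.95 and 0.52. Blood endothelium genes had 0.056 in Sham, 0.13 in Injury and -0.32 in Sacral NC. Schwann cell genes had 0.41 in Sham and -0.41 in Sacral NC, and neutrophil genes 0.70 and -1.27. Lymphocyte genes had -1.07 in Sham, 0.20 in Injury and -4.39 in Sacral NC, the last from sums of 2.74 scaled CPM in Sacral NC 2 against 26.0 and 89.2. Mast cell genes had -0.31, 0.017 and -0.81, and interferon-response genes -0.29, 0.33 and -0.71. Heat shock genes had 0.11 in Injury and -0.31 in Sacral NC.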

How the results depend on the processing

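The count of genes called between the classes, 64, depended on the setting. It was 568 by DESeq2, 6 with no low-count filter, 175 with no surgery group in the model and 248 with a continuous Acta1 plus Ckm covariate. It stayed within 1.5 times of 64 under RLE scaling, scaling without skeletal muscle and collagen genes, and a stricter filter. Leaving out 1 library gave 1 to 202 calls: 1 without Sham 1, 3 without Sham 2, Sham 3, Sacral NC 1 or Sacral NC 2, 5 without Sacral NC 3, 2 without Injury 3, 202 without Injury 1 and 184 without Injury 2. The cause was not tested. The interaction gave 0 calls in edgeR under each setting run and 79 by DESeq2. All 64 called genes kept their direction in every alternative that tested them (61 were tested with the stricter filter and with no surgery group). Replicate numbers are shared by the groups, and same-numbered libraries deviated with correlations from -0.511 to 0.607. Libraries numbered 1 or 2 differ in class between groups, so these correlations cannot decide whether the numbers pair libraries. Those numbered 3, all muscle-poor, had correlations of 0.607, 0.262 and 0.337. With the replicate block 2 genes were called, Myh3 and Myl3. Of 39 list medians, 13 changed sign in some setting, while those of smooth muscle, fibroblast, myeloid and lymphatic genes kept theirs in each setting run. Genes with few reads in the muscle-poor libraries have uncertain folds at this depth.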

Other observations

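Gene groups not described above showed no call in edgeR. Among genes of stratified epithelium, the outer skin layer, 16 of 18 tested had a negative difference with a median of -0.30, 1 of them at an unadjusted p under 0.05 (6.66% of all genes). That gene was Krt1, the keratin of upper skin layers, at 32.4 scaled CPM in Sham 1 against 300.3 and 113, at 111 and 89.1 in Injury 1 and Injury 2 against 127, and at 18.5 in Sacral NC 2 against 147 and 46.6 (-1.85 ± 0.64, edgeR adjusted p = 0.307). Sham 2 and Sham 3, and Sacral NC 1 and Sacral NC 3, differed among themselves by more than 2 times in this gene. Without Sacral NC 1 the median of the list was 0.02 and without Sham 1 it was -0.02.

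Mast cell genes had negative differences in 8 of 9 cases with a median of -1.36 (-0.66 without Sacral NC 2) and 4 lower at an unadjusted p under 0.05 (6.66% of all genes). DESeq2 called 1 of 9 lower (1.04% of all genes), Tpsb2, a mast cell tryptase, which stood at 0.244 to 6.81 scaled CPM over the 9 libraries. Haemoglobin and other red cell genes summed to 776 scaled CPM in Sacral NC 3 and to between 20.7 and 119 in the other 8 libraries. Genes of nerve fibres and Schwann cells had medians of -0.11 over 12 tested and -0.03 over 15, which were 0.21 and 0.20 without Sacral NC 2. Fat cell genes had a median of 0.25 over 19, with 4 higher at an unadjusted p under 0.05 (5.58% of all genes). Gpd1, the glycerol phosphate dehydrogenase of fat and muscle, was the 1 of 19 that DESeq2 called higher, 5.26% of the list against 2.22% of all genes (2.08 ± 0.60, edgeR adjusted p = 0.242).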
